A study of Mus musculus with 6 samples.

Results

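Interferon-gene-high GL261 cells are the cells of the mouse glioma line GL261 that gave the largest share of their transcripts to 8 interferon-stimulated genes. GL261 is an established line of mouse glioblastoma cells, here grown with fetal calf serum in a medium described as differentiating and measured in 2 libraries. GL261-GSCs are glioma stem cell cultures derived from that line and grown in a defined stem cell medium, measured in 4 libraries. All 6 libraries were 10x Genomics 5′ single-cell libraries of cultures for which no treatment is named, dissociated with Accutase and exposed to a lysis buffer with the detergent IGEPAL before capture. The protocol speaks of cells or nuclei without saying which. Nothing in the labels says whether libraries of a group came from separate cultures. No p-value therefore reaches beyond the spread between these libraries, which may be technical. In the GL261 fit that spread was shared by all genes, so its p-values do not show how far a single gene differed between the 2 libraries.

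Members were chosen by a measured value. A score was computed for each barcode with at least 8000 UMIs (unique molecular identifiers, each counting 1 captured transcript), 500 or more genes and a mitochondrial share of UMIs under 10%. The score was the summed UMIs of Ifit1, Ifit3, Isg15, Rsad2, Usp18, Irf7, Bst2 and Oasl2 over the total UMIs of the cell. The 5% of cells with the highest score in each GL261 library were the members, 194 of 3875 cells in replicate 1 and 205 of 4100 in replicate 2. They made 399 of the 7975 GL261 cells and of the 22868 cells in the 6 libraries. The 50% of cells with the lowest score in the same library, 1937 and 2050 cells, served as the reference. Levels of the 8 score genes in members are therefore a description of the choice and carry no test.

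Interferons are secreted proteins that cells release on sensing foreign or misplaced nucleic acid. Type I interferon binds the receptor pair Ifnar1 and Ifnar2, whose kinases Jak1 and Tyk2 phosphorylate STAT proteins such as Stat2. With Irf9 these form a factor that binds the interferon-stimulated response element (ISRE) in the promoters of antiviral genes, while interferon gamma acts mainly through the related GAS element. Stat2, Irf7 and Irf9 are themselves targets of the pathway. Tumour cells with an active interferon programme are known for antiviral gene expression, for increased display of peptides on MHC class I and for chemokines that attract T cells.

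The 8 score genes are protein-coding, and their positions are those of the GENCODE M21 annotation of GRCm38. Ifit1 (chr19:34640871-34650009, plus strand) and Ifit3 (chr19:34583531-34588731, plus strand) are neighbours and encode proteins that bind foreign RNA. Isg15 (chr4:156199424-156200818, minus strand) encodes a ubiquitin-like modifier, and Usp18 (chr6:121245906-121270917, plus strand) the protease that removes it and restrains the receptor. Rsad2 (chr12:26442746-26456452, minus strand) encodes viperin, which makes a chain-terminating nucleotide. Irf7 (chr7:141262706-141266481, minus strand) encodes a factor that drives interferon genes. Bst2 (chr8:71534255-71537456, minus strand) encodes tetherin, which holds budding virus at the cell surface, and Oasl2 (chr5:114896936-114912234, plus strand) belongs to the oligoadenylate synthetase family.

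The promoters of these genes are shown because the ISRE is the element through which the pathway acts. RefSeq (GRCm38.p6) gave the 250 bases before the start of 7 of the 8 genes. Both strands were searched for the ISRE core, GAAA followed by any 2 bases and GAAA, and for the GAS core, TTC followed by any 3 bases and GAA, with overlapping matches counted. The ISRE core was present in 5 of the 7 promoters, which are printed here 5′ to 3′ on the strand of the gene, with the bases of ISRE matches in capitals. They lie at chr4:156200819-156201068 (minus strand) for Isg15, chr19:34640639-34640888 (plus) for Ifit1, chr19:34583279-34583528 (plus) for Ifit3, chr8:71537473-71537722 (minus) for Bst2 and chr12:26456453-26456702 (minus) for Rsad2.
Isg15: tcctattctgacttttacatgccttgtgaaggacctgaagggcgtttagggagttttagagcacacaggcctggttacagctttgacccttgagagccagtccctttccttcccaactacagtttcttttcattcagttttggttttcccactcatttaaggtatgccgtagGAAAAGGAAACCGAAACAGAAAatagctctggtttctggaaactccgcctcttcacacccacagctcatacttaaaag
Ifit1: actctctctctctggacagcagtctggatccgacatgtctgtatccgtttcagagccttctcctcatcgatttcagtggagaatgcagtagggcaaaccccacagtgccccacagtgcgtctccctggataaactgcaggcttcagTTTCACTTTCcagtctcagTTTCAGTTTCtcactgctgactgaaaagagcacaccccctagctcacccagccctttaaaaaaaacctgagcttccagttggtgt
Ifit3: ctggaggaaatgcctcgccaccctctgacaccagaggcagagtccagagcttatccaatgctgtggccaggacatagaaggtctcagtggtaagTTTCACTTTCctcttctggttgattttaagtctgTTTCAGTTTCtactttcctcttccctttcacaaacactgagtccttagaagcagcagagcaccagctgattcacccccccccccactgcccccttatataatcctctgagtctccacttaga
Bst2: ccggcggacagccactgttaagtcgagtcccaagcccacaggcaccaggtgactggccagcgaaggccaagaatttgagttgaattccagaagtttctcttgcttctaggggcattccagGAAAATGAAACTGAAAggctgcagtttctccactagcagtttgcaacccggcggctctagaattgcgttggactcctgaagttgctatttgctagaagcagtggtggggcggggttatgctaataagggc
Rsad2: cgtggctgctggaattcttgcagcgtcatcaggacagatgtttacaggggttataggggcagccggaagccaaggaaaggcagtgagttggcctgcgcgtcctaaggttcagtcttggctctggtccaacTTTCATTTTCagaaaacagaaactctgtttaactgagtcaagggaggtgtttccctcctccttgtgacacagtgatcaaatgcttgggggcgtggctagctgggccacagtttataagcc
Isg15 held 3 overlapping matches on its own strand, GAAAAGGAAA, GAAACCGAAA and GAAACAGAAA, between 78 and 57 bases before the start. Ifit1 held 2 on the opposite strand, beginning 104 and 85 bases before the start, and Ifit3 held the same 2 words, TTTCACTTTC and TTTCAGTTTC, beginning 156 and 122 bases before it. Bst2 held 2 overlapping matches between 130 and 115 bases before the start, and its single GAS match, TTCCAGGAA, overlapped the first of them. Rsad2 held 1 match, TTTCATTTTC, beginning 120 bases before the start.

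The ISRE core was rare among promoters in general. It was present in 978 of the 32851 promoters of the table (2.98%) and in 255 of the 9630 promoters of genes tested in GL261 (2.65%). Of 60 other interferon-stimulated genes with a promoter entry, 20 (33.3%) held it. For the GAS core the corresponding shares were 7.02% of all promoters and 8 of the 60 (13.3%). A match describes letters and not a bound site, and its absence from the windows of Irf7 and Oasl2 says only that these letters do not occur there.

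Levels of the score genes are UMIs per 1000000 UMIs summed over a group of cells (CPM). In replicate 1, Isg15 stood at 1261 CPM in members, against 101 in the bottom 50% of the same library. Replicate 2 gave 629 in members and 23.7 in the reference cells. Isg15 was thus higher in members of both libraries, and replicate 1 lay above replicate 2 in members and reference cells alike. Ifit1 stood at 226 and 92.5 CPM in members of replicates 1 and 2, against 6.99 and 1.17 in the bottom 50%. Ifit3 stood at 237 and 113 against 8.4996 and 1.72. Rsad2, with 96.1 and 48.8 CPM in members, was nearly undetected in reference cells, at 1.45 and 0.356. Among the remaining genes, Usp18 reached 144 and 59.2 in members against 12.6 and 1.59, Irf7 166 and 69.4 against 10.3 and 2.17, and Oasl2 144 and 52.4 against 9.68 and 1.10. Bst2 was present at a high level in every group of cells, with 1856 and 1112 CPM in members and 545 and 289 in the bottom 50%.

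**Figure D1:**
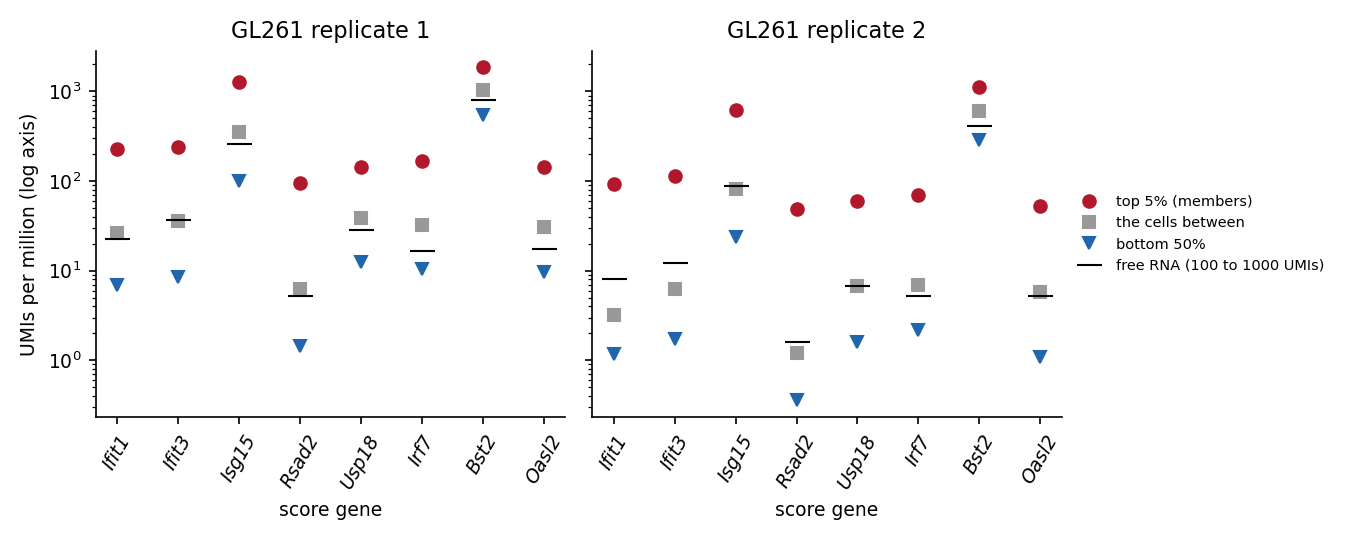
Level of each score gene (CPM, which is UMIs per 1000000 UMIs, log axis) in GL261 replicates 1 and 2. Circles are members, squares the cells between, triangles the bottom 50% and bars the free RNA of near-empty barcodes; Isg15, for example, stood at 1261 in members of replicate 1 and at 101 in the bottom 50%.

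Bst2 and Isg15 made up most of the score. In members, Bst2 gave 44.9% of the score UMIs in replicate 1 and 51.1% in replicate 2, and Isg15 gave 30.5% and 28.9%. In the bottom 50%, Bst2 alone gave 78.3% and 90.1%. Isg15 gave 14.5% and 7.37% of the score UMIs of these reference cells. The median member had UMIs of 6 of the 8 genes in replicate 1 and of 4 in replicate 2, against 2 and 1 in reference cells. After thinning every cell to 8000 UMIs, so that depth was equal, the medians were 5 and 3 in members and 2 and 1 in reference cells. At that depth, 37.1% of members in replicate 1 and 13.2% in replicate 2 had UMIs of at least 6 of the genes (61.3% and 23.9% unthinned). Of the reference cells 0 did (1.14% and 0.0488% unthinned), so that shares up to 0.155% in replicate 1 and 0.146% in replicate 2 are allowed by counting error alone.

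Members formed the upper tail of a continuous distribution. The score, written as UMIs per 10000 UMIs of the cell, had a median of 10.6 over all cells of replicate 1 and 4.92 over those of replicate 2. Members began at 26.9 and 12.7 and reached 121 and 104, with medians of 35.1 and 17.3. The 5 cells just outside the limit scored 26.6 to 26.8 in replicate 1 and 12.6 to 12.7 in replicate 2, so no gap set the members apart. At the limit the score rested on few molecules: the lowest member held 22 score UMIs in replicate 1 and 11 in replicate 2, and the median member 54 and 24.

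**Figure D2:**
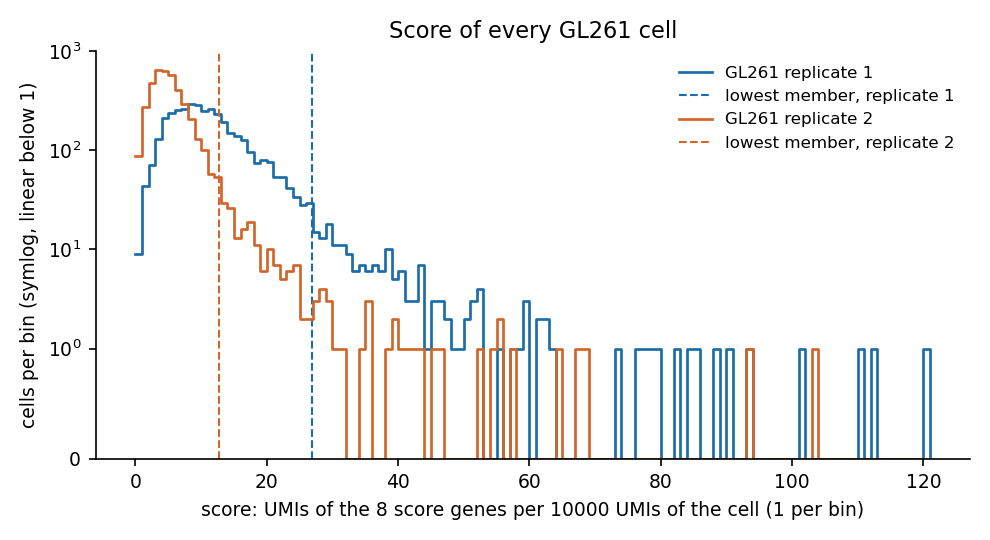
Number of cells (vertical, symlog axis) by score in UMIs per 10000 UMIs of the cell (horizontal) for both GL261 libraries, with dashed lines at the lowest member of each. Replicate 1 lies to the right of replicate 2, and members begin at 26.9 and 12.7 with no gap before them.

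The same rule picked cells of different absolute level in the 2 libraries. The pooled score over all cells was 12.4 per 10000 UMIs in replicate 1 and 5.83 in replicate 2, a 2.12-fold difference. Only 36 cells of replicate 2 (0.878%) reached the limit of replicate 1, whereas 1402 cells of replicate 1 (36.2%) reached the limit of replicate 2. Free RNA, read from barcodes with 100 to 1000 UMIs, scored 11.9 and 5.43, close to the pooled level of each library. Reference cells lay below their own free RNA for every score gene and members above it. Members and reference cells were compared within a library throughout, so both come from 1 pool of free RNA. How much of it each cell held was not estimated or corrected for, and its part in the differences was not tested.

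Members were somewhat shallower than reference cells and had a similar mitochondrial share. They had a median of 15528 UMIs in replicate 1 and 12918 in replicate 2, against 17244 and 14876 in the bottom 50%. Mitochondrial UMIs had a median of 1.02% and 0.984% in members and 0.949% and 0.916% in reference cells. The 2 GL261 libraries shared 23 barcodes, none of them a member in both. Summed over cells, the members gave 3069882 and 2768287 UMIs and the reference cells 33766382 and 30888923. Total UMIs per library ranged from 80899005 to 121309232 over the series, and each listed 737280 barcodes before filtering.

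Reading each score gene with members chosen by the other 7 gave a test that did not use the gene itself. The 7 genes other than Rsad2 passed the filter on low counts (0.589 CPM) on the reference cells alone, and all 7 were called higher (edgeR quasi-likelihood test, adjusted p under 0.05), a threshold that 6.26% of all genes passed on the higher side in the fit without Ifit1, 6.3% without Ifit3, 3.88% without Isg15, 6.41% without Usp18, 6.8% without Irf7, 5.65% without Bst2 and 6.29% without Oasl2. Ifit1 had a log2 fold change of 5.02 ± 0.11 (SE), Ifit3 of 4.79, Irf7 at 4.01, Oasl2 at 3.91, Usp18 at 3.62 and Isg15 at 3.19. In each of these 6 genes the fold was larger in replicate 2 than in replicate 1, as in Isg15, which was 6.97-fold higher in replicate 1 and 12.2-fold in replicate 2. Rsad2, with 93.1 and 48.3 CPM in members against 1.90 and 0.485, passed the filter only through the members, where it is high, so its call (6.72% of all genes in that fit) is no support and its values are a description.

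Bst2 changed least. Members chosen without it held 1460 and 865 CPM of Bst2, against 689 and 416 in the bottom 50%, a rise of 2.12-fold in replicate 1 and 2.08-fold in replicate 2. Where the spread of each gene between libraries was estimated robustly, 6 of these 7 calls held (3.95% to 6.8% of all genes called higher), and that of Isg15 did not (edgeR adjusted p = 0.16). Without the library block, 1 of the 7, Ifit1, was called (0.0512% to 0.365% of all genes).

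Outside the score, 880 genes were higher and 560 lower in members among 13693 genes tested. With the score genes included, 6.49% of all genes were called higher and 4.09% lower. Among the 12994 genes that passed the filter on the reference cells alone, 847 were called higher, and 554 of the 560 lower genes passed it on the members alone. With total UMIs in place of TMM as the library size, the split was 760 higher and 1007 lower. The 880 and 560 calls had the same sign in both libraries in 874 and 559 genes. The fit had 1 residual degree of freedom and took its spread from all genes together, so its p-values rest on that shared spread. DESeq2, which called fewer genes, called 201 of the 880 and 35 of the 560, with 1.53% of all genes called higher and 0.256% lower. With the robust estimate the shares were 6.57% and 4.13%. Large rises were fewer, with 1.21% of genes called and at least 2-fold higher. Outside the score these were 158 genes, of which 54 were on a list of 74 known interferon-stimulated genes and 94 were also called by DESeq2. Of the 158, 118 passed the filter on the reference cells alone, and the ISRE core was present in 24 of the 92 promoters known for these (26.1%).

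Known interferon targets outside the score were higher in members. Of a list of 74 other interferon-stimulated genes, 55 passed the filter on low counts on the reference cells alone. All 55 were called higher, with a median log2 fold change of 1.80 against -0.01 over all genes tested. The remaining tested genes, which bring the number to 67 and the median to 2.03, passed only because they were high in members and so had to differ, and 7 were too low to test, among them Mx1, at under 1 CPM in members of both libraries. DESeq2 called 48 of the 55 higher, and the robust estimate 54, leaving out Rtp4.

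**Figure D3:**
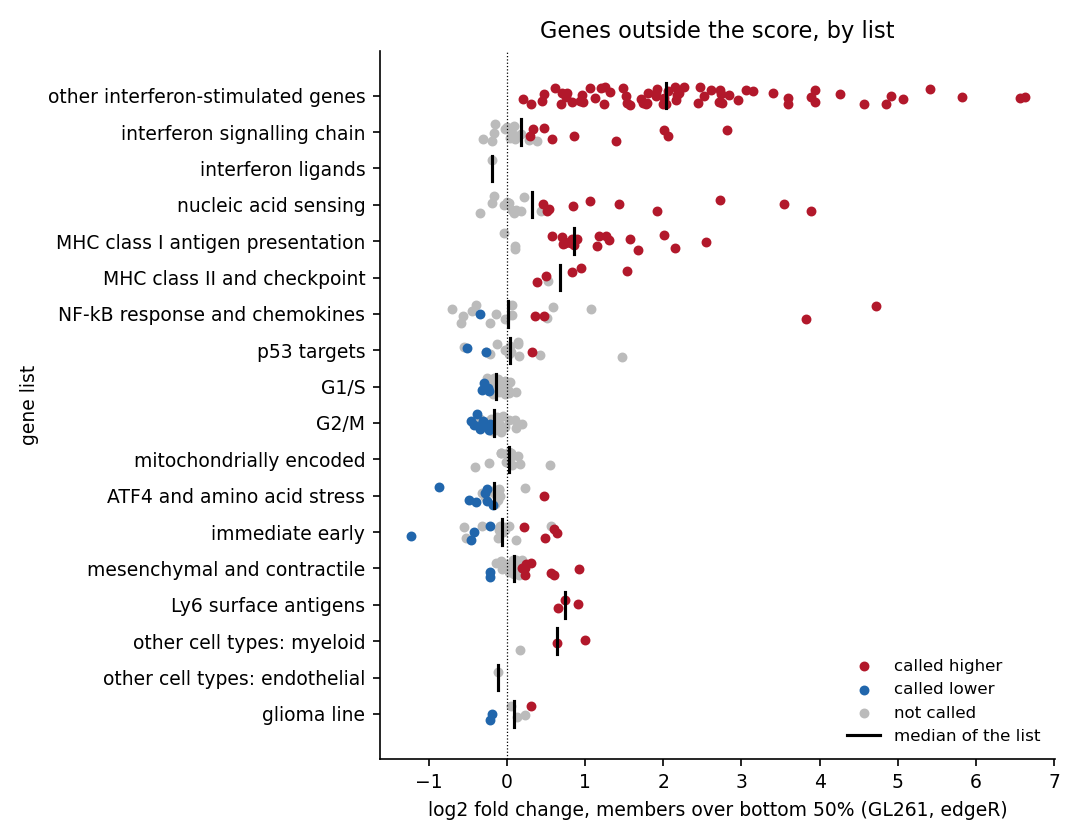
Log2 fold change of members over the bottom 50% in GL261 (horizontal) for each tested gene outside the score, by gene list; red and blue points were called higher and lower, grey points were not called, and bars mark medians. The 67 other interferon-stimulated genes, among them those that passed the filter only through the members, all lie to the right of 0, with a median of 2.03.

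The 12 largest rises among genes with at least 20 UMIs in the members of each library include the interferon-induced GTPase genes Iigp1, Ifi47, Gbp2 and Gbp3. Of these, only Gbp3 passed the filter on the reference cells alone, so the values of the other 3 are a description. Levels here and in the following tests are CPM scaled by the TMM method, where those above are unscaled. Iigp1, a GTPase that attacks the vacuoles of intracellular parasites, stood at 15.95 and 11.8 CPM in members and at 0.266 and 0 in reference cells of replicates 1 and 2, or 48 and 32 UMIs in members against 9 and 0. Gbp2, a guanylate-binding protein, stood at 59.5 and 20.6 CPM against 2.39 and 0.467 (log2 fold change 4.85). The related Gbp3 stood at 107 and 39.4 CPM against 9.80 and 2.77 (3.59 ± 0.13), and Ifi47 had 42 and 32 UMIs in members and 22 and 4 in reference cells. Members of both libraries lay above reference cells of both libraries for each of these 4 genes. They were picked as large rises in both libraries, so this separation is a description.

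Several enzymes and sensors of viral nucleic acid were called higher. Cmpk2, a nucleotide kinase next to Rsad2 on chromosome 12, stood at 73.4 and 34.98 CPM in members against 5.19 and 2.002 (3.95 ± 0.15). Zbp1, which senses Z-form nucleic acid, stood at 72.1 and 31.3 against 5.02 and 2.07 (3.90 ± 0.15). Oasl1, of the oligoadenylate synthetase family, stood at 9.30 and 6.26 against 0.118 and 0.0334 and passed the filter only through the members. All 3 were higher in members of both libraries than in reference cells of either, a description, since they were picked for their rise or with their values seen. Dhx58, a relative of the RIG-I helicase, changed by 3.54, and the nuclear proteins Phf11d and Sp110 by 3.59 and 3.41. Oas3, which activates the nuclease RNase L (3.94), and Ifit3b (5.82) also passed only through the members. Ifit3b is nearly identical to Ifit3, so its UMIs cannot be assigned with certainty. Ifitm3, which blocks viral entry, was abundant in every group: 1480 and 745 CPM in members against 398 and 179, a log2 fold change of 1.999 ± 0.063.

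Some known targets moved little. Ifit2, encoded beside Ifit1 and Ifit3 and usually induced with them, stood at 28.9 and 23.6 CPM in members against 15.3 and 12.8, a log2 fold change of 0.93. It was called higher, also by DESeq2 and with the robust estimate. By comparison Ifit1 and Ifit3 changed by 5.02 and 4.79 in the reading that left each out of the score. Ifi27 (0.21), Ifitm2 (0.30) and Pnpt1 (0.45) had the smallest changes on the list.

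Of the signalling chain, several transcription factors rose, while no receptor or kinase other than Ifnar2 was called. Stat2 stood at 81.4 and 35.7 CPM in members against 16.8 and 11.5 in reference cells (2.06 ± 0.12). Members lay above reference cells in both libraries without overlap. Irf9, its DNA-binding partner, rose less, from 27.9 and 15.9 to 45.2 and 32.0 CPM (0.85 ± 0.12). Irf5 (2.82) and the feedback inhibitor Socs1 (1.398) were higher too, as were, by smaller amounts, Irf1 (0.58), Irf2 (0.48), Ifnar2 (0.33) and Stat3 (0.30), none of the last 4 being called by DESeq2. In all, 9 of the 23 tested members of a list of 25 were called higher and 0 lower, with a median of 0.18. The shares over all genes tested were 6.49% higher and 4.09% lower.

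Ifnar1 stood at 20.3 and 21.0 CPM in members and at 21.7 and 20.4 in reference cells, with values of the 2 groups overlapping and no call. Its log2 fold change was near 0 and its sign depended on the setting. Jak1 (0.10), Jak2 (0.09), Tyk2 (-0.30), Ifngr1 (0.09), Ifngr2 (-0.15) and Irf3 (0.02) were not called either.

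Interferon transcripts themselves were almost absent. Ifnb1, the interferon beta gene, had 0 UMIs in all cells of both libraries. Together the 15 interferon ligand genes had 48 UMIs in the 3875 cells of replicate 1 and 29 in the 4100 cells of replicate 2, of which 47 and 27 were Ifnz. Members held 2 and 1 of these UMIs. Only Ifnz could be tested, and it was not called.

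Several interferon-inducible sensors of nucleic acid rose. Of 22 tested genes of a list of 26, 10 were called higher, 6 of them also by DESeq2, and 0 lower, with a median of 0.32; the 10 include Zbp1 and Dhx58 above. Ifih1, which encodes the RNA helicase MDA5, stood at 107 and 60.01 CPM in members against 19.7 and 6.84 (2.72). Ddx58, which encodes RIG-I, stood at 121 and 85.8 against 49.4 and 29.4 (1.43). Tlr3 (1.92) and the kinase gene Eif2ak2 (1.06) were also higher. The DNA sensor gene Mb21d1 (cGAS, -0.35), its adaptor Tmem173 (STING, 0.11), the RNA adaptor Mavs (-0.19) and the kinase gene Tbk1 (0.00) were not called.

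Genes of antigen presentation on MHC class I were higher in members. Of 21 tested genes of a list of 23, 18 were called higher and 0 lower, with a median log2 fold change of 0.86, and DESeq2 called 12 of them. The peptide transporter subunit Tap1 stood at 78.4 and 41.6 CPM in members against 17.5 and 10.1 (2.14), and the immunoproteasome subunit Psmb8 at 288 and 205 against 96.5 and 71.7 (1.58 ± 0.06). Psmb9 changed by 2.004 and the chaperone Tapbp by 1.31.

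The light chain and the classical heavy chains were also higher. B2m stood at 629 and 413 CPM in members against 350.5 and 260.2 (0.79 ± 0.06). H2-K1 stood at 123 and 90.9 against 67.1 and 50.8 (0.89 ± 0.08), and H2-D1 changed by 0.71. Among the non-classical genes H2-T23 changed by 2.55, and Nlrc5, the transactivator of class I genes, by 1.18 at 5.98 and 2.58 CPM in members. The general folding proteins Canx, Calr and Pdia3 made up the 3 genes not called. Heavy chain genes are close copies of each other, and no source used here says how their UMIs were divided.

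Most class II and checkpoint genes were too low to test, 6 of 14 being testable. Of the 6, 5 were called higher, 2 of them (Lgals9 and Cd47) also by DESeq2, where edgeR called 6.49% of all genes higher. Lgals9 is also on the list of other interferon-stimulated genes. Lgals9, a galectin that binds the T cell receptor Tim-3, stood at 338 and 232 CPM in members against 171 and 155 (0.83 ± 0.06). Cd47, the signal against phagocytosis, changed by 0.50. Cd274, which encodes PD-L1, changed by 1.53 at only 4.32 and 2.95 CPM in members.

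The chemokine Cxcl10 was higher, and few other genes of the NF-kB list were called. Cxcl10, which attracts T cells through Cxcr3, stood at 804 and 440 CPM in members against 40.1 and 47.4 in reference cells, a log2 fold change of 3.83 ± 0.06. Members lay above reference cells in both libraries, by log2 ratios of 4.32 in replicate 1 and 3.21 in replicate 2. With the robust estimate the standard error was 0.58 and the call was lost (edgeR adjusted p = 0.33). DESeq2 called Cxcl10. Its UMIs were concentrated: the 10 highest cells held 25.9% of all Cxcl10 UMIs of replicate 1 and 23.1% of replicate 2, and the median member had 0. Ccl5, another T cell chemokine, stood at 43.2 and 6.63 CPM against 1.68 and 0.234 (4.72) and passed the filter only through the members. Of its UMIs, 10 cells held 78.7% and 90.4%. Of the 16 genes of this list of 28 that passed the filter on the reference cells alone, 3 were called higher and 1 lower, with a median of 0.02. Of all 12994 genes that passed in this way, 847 were called higher and 560 lower. Besides Cxcl10 the 3 higher genes of the list were Nfkbia (0.36) and Csf1 (0.47), and the lower gene was Rela (-0.34). DESeq2 called none of Nfkbia, Csf1 and Rela.

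Some genes of mitosis were slightly lower in members. Of 30 G2/M genes, 9 were called lower and 0 higher, with a median of -0.17, and 25 were below reference cells in both libraries, as were 5101 of the 13693 genes tested. Another 3 of the 30 were above reference cells in both libraries. Mki67 stood at 244 and 285 CPM in members against 315 and 371 (-0.34 ± 0.06), and the checkpoint kinase gene Bub1 changed by -0.47. Of 30 G1/S genes, 4 were called lower, among them Rrm2 (-0.32), and 0 by DESeq2. Members were also shallower than reference cells (15528 and 12918 median UMIs against 17244 and 14876). With reference cells matched for depth, 5 of the 30 G2/M genes were called lower (where 6.05% of all genes were called higher and 2.9% lower), and DESeq2 called 2, Anln and Mki67. Of 16 p53 targets tested, 1 was called higher, Cdkn1a (0.32), whose product halts the cycle, and 2 lower. Over the whole fit the shares were 6.49% higher and 4.09% lower. A single rise among 16 genes is near the first share, so it is no result about this list. Arrest of the cycle was not tested. DESeq2 called none of the 16.

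Stress and growth-response genes showed small shifts in both directions. Of 20 targets of the amino acid stress factor ATF4, 7 were called lower and 1 higher, with a median of -0.17 and no call by DESeq2. The cystine transporter gene Slc7a11 changed by -0.88, Slc7a5 by -0.40 and Trib3 by -0.49, whereas Ddit4 rose by 0.47. Of 20 immediate early genes tested, 4 were called higher and 4 lower. With the robust estimate 3 were called higher and 3 lower, and with DESeq2 1 and 0. Over all genes tested, edgeR called 6.49% higher and 4.09% lower. Egr1 stood at 38.2 and 25.04 CPM in members against 121.8 and 32.7 (-1.23 ± 0.11). In replicate 1 a single reference cell held 418 of its UMIs and 10 cells held 36.2% of them, and the call was lost with DESeq2 and with the robust estimate (edgeR adjusted p = 0.119).

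Falls of 2-fold or more were few, at 17 genes or 0.124% of those tested. Errfi1, a feedback inhibitor of the EGF receptor, stood at 20.3 and 19.5 CPM in members against 52.3 and 31.0 (-1.04 ± 0.13) and was the only one of the 17 also called by DESeq2. Dmpk had 0 UMIs in members of both libraries and 60 and 30 UMIs in reference cells, which makes it at least 2.71-fold lower, with 3 UMIs over both libraries as the floor. Dmpk and Hic2 passed the filter only through the reference cells, so their values are a description. Hic2 (-1.82), Slc25a48 (-1.49), Ss18l1 (-1.38), Msln (-1.20) and S100a7a (-1.09) completed the 8 largest falls, each at under 8 CPM in every group and not called by DESeq2.

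Markers of immune and endothelial cells were low, with several defining ones at 0. Of 12 myeloid markers, Ptprc, C1qa, C1qb and Adgre1 had 0 UMIs in members and reference cells of both libraries. The 12 summed to 32.2 and 27.5 unscaled CPM in members, 20.8 and 18.5 in reference cells and 23.9 and 19.5 in free RNA. Lyz2 (8.31 and 8.84 CPM against 4.07 and 4.67) and Csf1r (16.3 and 16.6 against 10.8 in both libraries) were called higher, neither by DESeq2, and the part of this signal in the other results was not tested. Csf1r, the receptor of macrophage growth factor, had a UMI in 17.0% and 16.1% of members and in 14.6% and 12.8% of reference cells. Lymphoid and plasmacytoid markers had 5 and 0 UMIs in all members, and the endothelial genes Cldn5, Tek and Kdr had 0. Flt1, another of the 6 endothelial markers, stood at 34.9 and 29.1 CPM in members against 38.4 and 32.6. The 6 summed to 34.9 and 28.9 unscaled CPM in members and to 39.6 and 32.5 in reference cells, whereas the levels of Flt1 are scaled. Nes, Vim, Cd44, Sox2, S100a6 and Pdgfrb, which mark the glioma line, were all present in members, with Vim higher by 0.31 and Nes and Cd44 lower by 0.20 and 0.22; of these DESeq2 called Vim.

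Some contractile and Ly6 surface-antigen genes were higher in members. Acta2, smooth muscle actin, stood at 312 and 446 CPM in members against 170 and 239 (0.92 ± 0.06), and Tagln changed by 0.60. Of 25 tested genes of this list of 26, 8 were called higher and 2 lower, against 4 and 0 by DESeq2, Acta2 and Tagln among the 4. The edgeR shares over all genes tested were 6.49% higher and 4.09% lower. The 3 tested Ly6 antigen genes, Ly6c1 (0.91), Ly6a (0.75) and Ly6e (0.65), were all called higher, also by DESeq2. None of the 13 mitochondrially encoded protein genes was called by edgeR or DESeq2, and 2 of them, mt-Co1 and mt-Nd6, had an unadjusted edgeR p under 0.05.

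Ranked by score, cells outside the members held intermediate levels of the other interferon genes. In replicate 1 the 74 other interferon-stimulated genes summed to 2388 CPM (unscaled, as in the next paragraphs) in the bottom 50% and to 10490 in the top 1%. Replicate 2 gave 1466 and 6843. The sum was higher at every step between them in both libraries, and the members were the end of this graded range. MHC class I genes went from 3048 to 5034 and from 2821 to 4394. Tap1, Psmb8 and Psmb9 are counted in both sums.

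Cxcl10 was concentrated at the top. It stood at 40.3 and 45.97 CPM in the bottom 50% and at 195 and 115 in the cells ranked 2 to 5%. Between 1 and 2% it reached 563 and 467, and in the top 1%, which is 39 and 41 cells, 2745 and 1353. G2/M genes had their lowest sum between 1 and 2%: they stood at 4665 and 5348 in the bottom 50%, at 3242 and 3967 between 1 and 2% and at 4016 and 4914 in the top 1%. These steps were not tested.

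**Figure D4:**
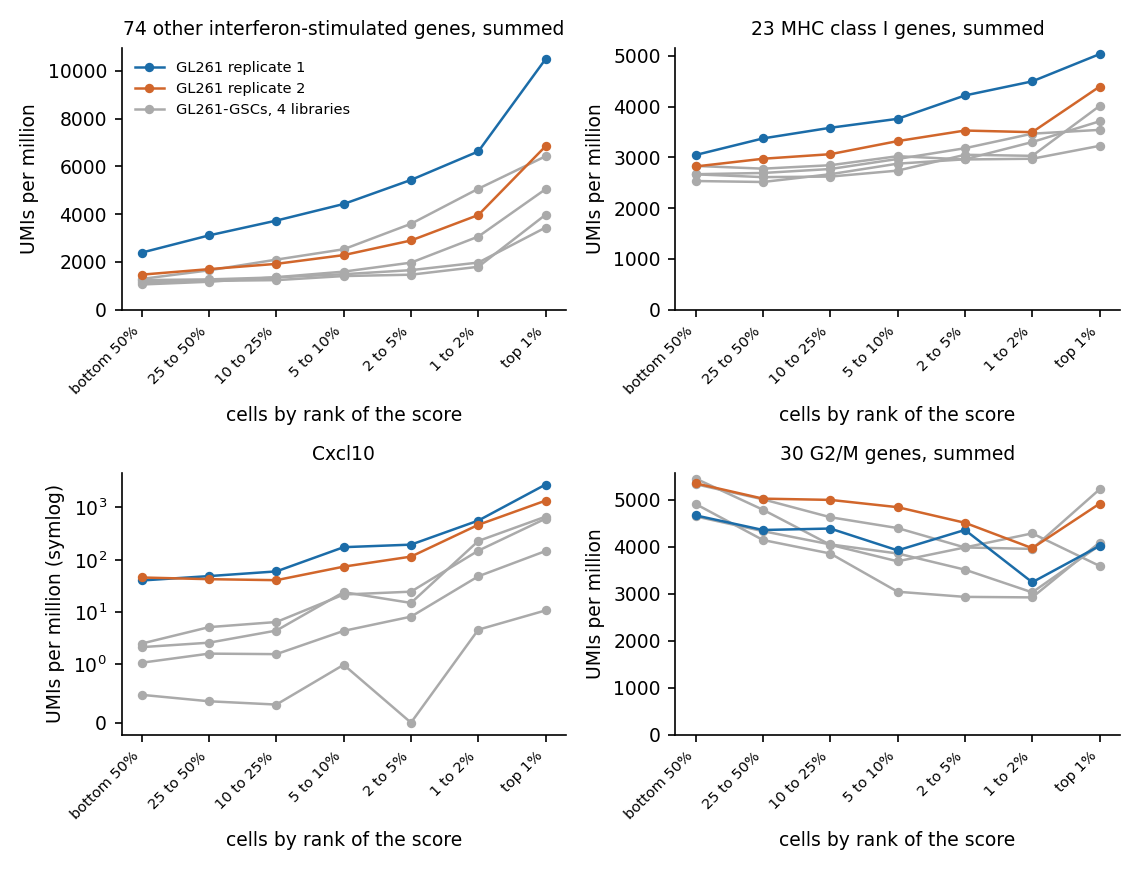
Summed unscaled CPM (UMIs per 1000000 UMIs) of 4 gene groups (vertical) in cells ranked by score (horizontal, from the bottom 50% to the top 1%) for GL261 replicates 1 and 2 and, in grey, the 4 GL261-GSCs libraries. Other interferon-stimulated genes reach 10490 and 6843 in the top 1% of the GL261 libraries, and Cxcl10, on a symlog axis, 2745 and 1353. Tap1, Psmb8 and Psmb9 are in the sums of both the interferon-stimulated and the MHC class I genes.

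Membership overlapped with, and was not identical to, a ranking by other interferon genes. Of the members, 122 of 194 (62.9%) in replicate 1 and 114 of 205 (55.6%) in replicate 2 were also in the top 5% by the summed share of the 74 other genes, where independent rankings would share 5%. Nearly all, 97.9% and 99.02%, lay above the library median of that share. Dropping Bst2 from the score kept 73.2% and 71.7% of members, dropping Isg15 75.8% and 77.1%, and giving the 8 genes equal weight 64.9% in both libraries.

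Members were not uniform. Bst2 gave more than 50% of the score UMIs in 90 members of replicate 1 (46.4%) and 120 of replicate 2 (58.5%). In these cells the 74 other interferon-stimulated genes summed to 5755 and 3221 CPM, below the 7444 and 4834 of the remaining members and above the 2388 and 1466 of reference cells. Ifit1 or Ifit3 was detected in 72.2% and 48.3% of the Bst2-dominated members and in 94.2% and 81.2% of the others; these shares follow partly from the division itself.

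The same rule applied to the GL261-GSCs libraries gave 180, 232, 243 and 89 top cells in replicates 1 to 4, compared with 1801, 2319, 2433 and 892 bottom cells. In those libraries 9.12% of 12298 genes were called higher and 6.78% lower. With total UMIs in place of TMM as the library size, the split there was 959 genes higher and 1080 lower. Of 55 tested other interferon-stimulated genes, 52 were called higher, with a median of 1.48. Of the 37 that passed the filter there (1.484 CPM) on the bottom cells alone, 34 were called higher, with a median of 1.18. Of 19 MHC class I genes 14 were called higher and 1 lower. In cells chosen by the other 7 genes, Isg15, Rsad2 and Bst2 were called higher there (4.72% to 9.31% of all genes in the 8 such fits); the other 5 score genes were too, but passed the filter only through the top cells. Among 11795 genes tested in both lines and outside the score, 397 were called higher in both, which is 49.4% of the 804 in GL261 and 37.7% of the 1052 in GL261-GSCs. For genes called lower the overlap was 200, 36.9% of 542 and 24.7% of 810. Another 15 genes were called higher in GL261 and lower in GL261-GSCs, and 19 the reverse. The 397 include genes, such as Gbp2, that passed the filter only through the top cells and so had to differ. No count without such genes was made, so this overlap is a description.

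Few genes passed the test of a difference between the lines. Of 13502 genes tested for the difference itself, 0.289% had a higher log2 fold change in GL261 and 0.844% a lower one. Of 66 other interferon-stimulated genes tested in this way, 3 were higher and 4 lower in GL261. Of the 4, Ifi27l2a (-0.74) was the 1 gene that passed the filter on the reference cells of both lines. Some genes of this list, such as Iigp1, passed it in GL261 only through the members. How many of the 3 higher genes did was not counted, so both counts are a description. Stat2 changed by 2.06 in GL261 and by 0.81 in GL261-GSCs (difference 1.19, edgeR adjusted p = 0.0150). In the GL261-GSCs libraries it stood at 32.6, 18.7, 15.4 and 15.2 CPM in top cells against 11.6, 10.2, 13.0 and 16.1 in bottom cells, with 1 library in which top cells were the lower. This difference was lost with the robust estimate (edgeR adjusted p = 0.35). Tap1 also changed more in GL261, by 2.14 against 0.99.

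The fitted fold of Isg15 was larger in GL261-GSCs. Read with cells chosen by the other 7 genes, its log2 fold change in GL261 was lower by 1.39 (0.6% of all genes were called lower in this fit), and the call was lost with the robust estimate (edgeR adjusted p = 0.23). Top cells of GL261-GSCs held 625, 472, 335 and 250 unscaled CPM of Isg15, against 1030 and 475 in GL261 members. Their bottom cells held 28.0, 15.5, 16.7 and 9.70, against 148 and 39.0 in GL261. Rsad2 (0.85) was not called. The fitted folds of the Ifit genes were also larger in GL261-GSCs, with differences of -2.86 for Ifit2, -2.86 for Ifit3 and -2.26 for Ifit1. These 3 genes passed the filter there only through the top cells, where they are high, so their differences are a description, and the fold rests on a low reference: Ifit3, in cells chosen without it, stood at 0.221, 0.0942, 0 and 0 unscaled CPM in their bottom cells and at 46.1, 14.8, 6.27 and 9.69 in their top cells, below the 224 and 95.5 of GL261 members. Cxcl10, which also passed there only through the top cells, differed by -2.25, with 175, 166, 45.6 and 3.04 CPM in top cells and 2.10, 2.39, 1.09 and 0.479 in bottom cells of GL261-GSCs, and was lost with the robust estimate (edgeR adjusted p = 0.31).

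Some stress and immediate early genes had a lower log2 fold change in GL261 members than in top cells of GL261-GSCs. Of 20 ATF4 targets 5, and of 20 immediate early genes 5, had a lower log2 fold change in GL261, and none a higher one. Over all genes tested for the difference, 0.844% were called lower and 0.289% higher. Atf3, on both lists, changed by 1.34 in GL261-GSCs and -0.32 in GL261 (difference -1.68), Nupr1 by 1.98 and 0.23, and Junb, called lower in GL261, by 0.93 and -0.22. Egr1 had a log2 fold change of -1.23 in GL261 and of 0.01 in GL261-GSCs, and its difference was lost with the robust estimate (edgeR adjusted p = 0.43). G2/M genes were called lower in 27 of 30 cases in GL261-GSCs, with a median of -0.40, against 9 of 30 in GL261; of the 30 differences only that of Cenpe was called.

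**Figure D5:**
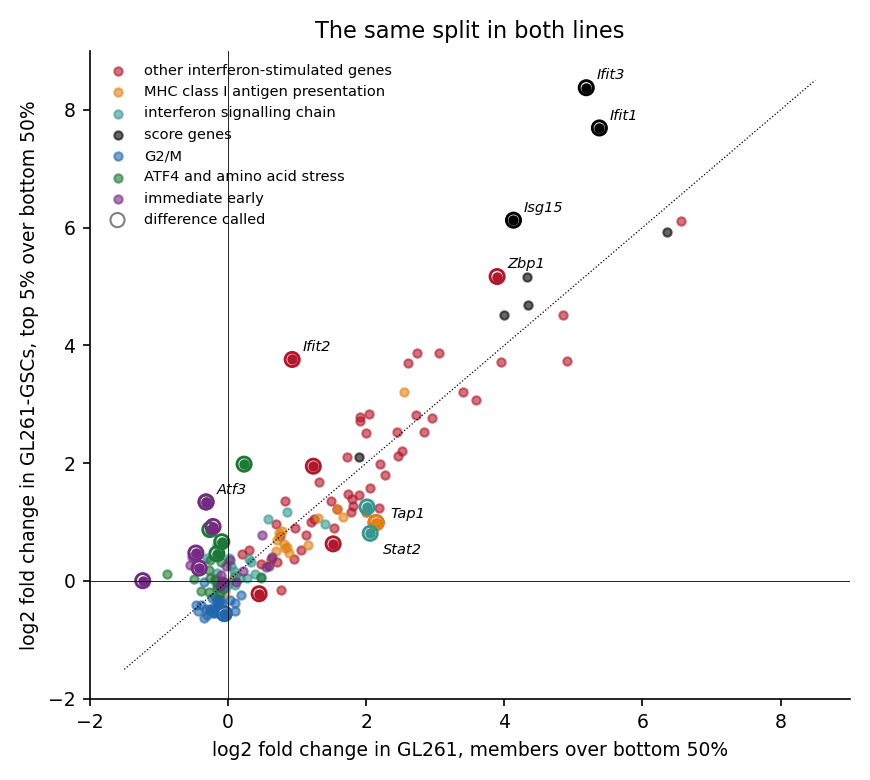
Log2 fold change of top 5% over bottom 50% in GL261 (horizontal) and GL261-GSCs (vertical) for genes of 7 groups tested in both, with rings where the difference was called and a dotted line of equality. Ifit1, Ifit2, Ifit3 and Isg15 lie above the line, and Stat2 and Tap1 below it. The score genes chose the cells shown here, so their positions and rings are a description and no test. Ifit2, Zbp1 and some other genes passed the filter in GL261-GSCs only through the top cells, so theirs are a description too.

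Over whole libraries the score of the lines overlapped. Its value was 9.10 ± 4.62 per 10000 UMIs (SD, n = 2) in GL261, against 5.72 ± 2.11 (SD, n = 4) in GL261-GSCs, a difference within the spread between libraries (exact permutation test, 2-sided p = 0.40 as double the smaller tail, where the smallest p this design allows is 0.133, and 0.267 by absolute difference). The difference of -3.38 (GL261-GSCs minus GL261) rests on GL261 replicate 1: it was -0.11 without that library and -6.65 without replicate 2. Ifit3 stood at 31.3 and 8.75 unscaled CPM in the GL261 libraries, above the 2.59, 0.772, 0.299 and 0.473 of the others. Rsad2 had the opposite order: the GL261 libraries stood at 7.96 and 2.92, below the 45.04, 26.4, 17.5 and 18.5 of the GL261-GSCs libraries. For both genes the exact permutation p was 0.133 as double the smaller tail, and 0.356 after adjustment over the 8 genes. By absolute difference the unadjusted permutation p was 0.0667 for Ifit3 and 0.133 for Rsad2.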

How the data were processed

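Single-cell 5′ RNA was measured in 2 GL261 and 4 GL261-GSCs libraries. The authors deposited unfiltered UMI count matrices, made with Cell Ranger 4 per the file headers, against mm10 per the submitters' processing notes. Groups came from the labels. No doublet caller was run and no doublets were removed. Here UMIs were summed per library over top 5% and bottom 50% cells and fitted with edgeR 4.0.16 (TMM, filterByExpr at 0.589 CPM and a minimum count of 10, library as a block, quasi-likelihood test, Benjamini-Hochberg adjustment), with DESeq2 1.42.0 as an alternative, in R 4.3.3. The script was tested on simulated data: of 200 genes changed by 2 on the log2 scale among 13693, the GL261 fit called 178, with 5 false calls, and DESeq2 158, with 0. The GL261-GSCs fit called 193 of 200, with 12 false calls, among 12298 genes. Every simulated gene had the same dispersion, estimated from these data (0.00132 for GL261 and 0.00445 for GL261-GSCs), and only changes of this size were planted. The simulation therefore cannot show how many false calls arise where spread differs between genes, or how smaller changes are called. Top and bottom cells of a library share that library by construction, which is where the block comes from. Values are written as members against reference, replicate 1 then replicate 2, and ± is the standard error of a log2 fold change unless SD is named. In the GL261 fit this error was derived from the spread shared by all genes. It does not show how far the change of a single gene differed between the 2 libraries. Whole-library levels were compared by exact permutation tests. Of 54446 gene identifiers, 54409 matched GENCODE M21. Named genes were the 8 score genes, the 12 largest rises and 8 largest falls called with 1 sign in both libraries and at least 20 UMIs in each library in the cells where they are higher, 12 genes of the pathway and related lists, and the smallest p of each list, with other list members as examples chosen with their values seen. The members and the gene lists were chosen with earlier results of these data known. The robust spread estimates and the left-out reading in GL261-GSCs were added after seeing the data. Alternatives covered the test, block, scaling, filters, cell limits, score and reference cells. Results for some genes are not reported here.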

Additional observations from a re-analysis of the deposited data

Results flagged for a closer look

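Several genes had a difference between the lines past the threshold, by the test of the difference itself (GL261 minus GL261-GSCs, log2 scale, edgeR quasi-likelihood test with Benjamini-Hochberg adjustment), among 42 named genes examined. With cells chosen by the other 7 genes, the differences were -2.255 for Ifit1, -2.8615 for Ifit3 and -1.3943 for Isg15. With the robust estimate those of Ifit1 (edgeR adjusted p = 0.082) and Isg15 (0.23) were lost. Ifit1 and Ifit3 passed the filter in GL261-GSCs only through the top cells, so their differences are a description. Ifit3b, whose UMIs cannot be told with certainty from those of Ifit3, differed by -3.0251 and passed the filter only through the cells where it is high. In top cells of the GL261-GSCs libraries it had 56, 17, 3 and 2 UMIs.

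Zbp1 differed by -1.282, with 32.9, 14.9, 5.14 and 10.1 CPM in top cells of GL261-GSCs and at most 1.08 CPM in their bottom cells, so that it passed the filter there only through the top cells. Cxcl10, which passed in the same way, differed by -2.2542, lost with the robust estimate (edgeR adjusted p = 0.31). In the other direction, Stat2 differed by 1.1913, also lost with that estimate (edgeR adjusted p = 0.35). Stat2 was higher in top than in bottom cells in GL261-GSCs replicates 1 to 3, and lower in replicate 4 (15.2 against 16.1 CPM).

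Errfi1 differed by -1.419: it was lower in members of both GL261 libraries, while GL261-GSCs gave 21.8, 32.6, 8.22 and 8.12 CPM in top cells and 20.5, 18.1, 9.55 and 7.28 in bottom cells. Egr1 differed by -1.2164, and this difference was lost with the robust estimate (edgeR adjusted p = 0.43). Dmpk, with 0 UMIs in GL261 members, had 9, 11, 12 and 5 UMIs in top cells of GL261-GSCs. Its fitted difference of -8.3492 depends on the prior count and is no measure of size.

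Among 40 groups of 4 libraries examined for a library far from the rest, of which chance marks about 1 in 20, 2 stood out. Oasl2 over all cells was at 22.048 CPM in 1 GL261-GSCs library and at 3.36 to 5.53 in the other 3. The log2 ratio of Ifnar2 in top over bottom cells was 0.0020772 in GL261-GSCs replicate 2 and 0.38 to 0.43 in the others.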

How the results depend on the processing

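The count of genes called in GL261, 1448, became 39 with no replicate block, 245 with DESeq2, 860 at a UMI minimum of 12000, 369 for the top 2% of cells, 498 against all other cells and 757 with the score on thinned cells. Under the remaining settings it lay between 1043 and 1965. In GL261-GSCs (1956 genes) no replicate block gave 33 and DESeq2 1241, and leaving out a library gave 942 (replicate 2) to 2001. No filter moved the split there to 776 higher and 1877 lower, and in GL261 to 614 and 713. For the difference between lines (153), no replicate block gave 0, DESeq2 76, no filter 237, and leaving out a library 39 (GL261 replicate 1) to 255 (GL261-GSCs replicate 4). The score genes called in the left-out reading were 2 of 8 (Ifit1 and Rsad2) with no replicate block. Rsad2 passed the filter only through the members, so its call is no support.

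Other interferon-stimulated genes called higher (67) were 17 and MHC class I genes (18) were 4 with no replicate block, and 59 to 67 and 12 to 18 otherwise. The 67 include genes that passed the filter only through the members and so had to differ. Of the 55 that passed it on the reference cells alone, DESeq2 called 48 and the robust estimate 54. G2/M genes called lower (9) were 0 with no replicate block, 2 with DESeq2, 18 with library size scaling, 4 for the top 2%, 5 with depth-matched cells and 16 with equal weights. ATF4 targets called lower (7) were 0 with no replicate block, DESeq2 or the top 2%, and 2 at 12000 UMIs, against all other cells or with thinning.

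Ifnar1 turned positive under DESeq2 (0.00061), UMI minimums of 5000 (0.060) and 12000 (0.013), a mitochondrial limit of 5% (0.00094), the top 10% (0.13), the top 2% (0.27), thinning (0.023), depth matching (0.045), equal weights (0.22) and without very deep cells (0.0015); without 1 library it was -0.097 or 0.040. Ifnz became 0.22 with thinning and Flt1 0.24 at 5000 UMIs. Of 43 named genes outside the score, 26 lost their call with no replicate block, 13 with DESeq2 and 2 (Cxcl10, Egr1) with robust estimates. The whole-library difference in score lay between -6.65 (without GL261 replicate 2) and -0.11 (without GL261 replicate 1) on leaving out a library. The cause of these changes was not tested. With 2 libraries and 1 residual degree of freedom, leaving out a GL261 library leaves no test, and genes that did not reach 0.589 CPM in 2 of the 4 groups of cells were not testable at this depth.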

Other observations

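A few genes known from glial and pigment cells had different levels in the interferon-gene-high cells and in reference cells. They were chosen after their values were seen and are given as values only, with no test. Mbp, a protein of myelin, was spread over many cells, with 3.09% and 3.69% of its UMIs in the 10 highest cells. It stood at 167 and 304 CPM in members against 118 and 203 in reference cells (log2 fold change 0.58). Apod, a lipid carrier (2.10), Enpp2, the enzyme that makes lysophosphatidic acid (1.52), and Pmel, a pigment granule protein (1.52), had the same direction in both libraries. Apod and Enpp2 rested on fewer cells. The 10 highest cells held 10.4% and 16.8% of Apod UMIs and 14.1% and 19.8% of Enpp2 UMIs. Apod was detected in 15.5% and 6.34% of members and Enpp2 in 12.4% and 9.76%, and a single member of replicate 2 held 20 UMIs of Enpp2.

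In GL261-GSCs, Mbp changed by -0.30 and Pmel by -0.83, against 0.58 and 1.52 in GL261. Sox10, the factor of the glial and pigment lineages, stood at 351 and 345 CPM in members against 319 and 345.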
